A study of Mus musculus with 6 samples.

Results

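The cells described here are tumour neutrophils with high levels of the chemokine transcripts Ccl3 and Ccl4, and they were selected on those transcripts. A barcode counted as a cell with at least 500 UMIs (unique molecular identifiers, 1 per captured transcript), more than 200 genes and under 10% mitochondrial UMIs. It entered the neutrophil gate when S100a8, S100a9, Csf3r, Cxcr2, Hdc and Il1r2 together held at least 1% of its UMIs, with at most 1 UMI of C1qa, C1qb and C1qc and 0 UMIs of Krt8 and Krt18. Within the gate, the Ccl3-Ccl4-high cells had at least 0.5% of their UMIs in Ccl3 and Ccl4, under 0.5% in the interferon-induced genes Rsad2, Ifit1, Ifit3 and Isg15, and under 1% in Retnlg, Mmp8, Wfdc21 and Stfa2l1. This gave 2072 Ccl3-Ccl4-high cells among 21235 gated neutrophils and 74546 cells in all. The other gated cells were 14441 unmarked neutrophils, under all 3 thresholds, 4244 Retnlg-Mmp8-high cells and 478 interferon-high cells.

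The study compared tumours of KPC cells with an empty vector (OE-Vector) and tumours of KPC cells with MLKL overexpression (OE-MLKL), where MLKL is the pseudokinase that permeabilises the plasma membrane in necroptosis. KPC cells are mouse pancreatic cancer cells, isolated from mice whose alleles include Trp53 R172H and Pdx1-cre, and 1000000 of them were injected into the pancreas of C57BL/6 mice aged 6 to 8 weeks. The construct was carried by the injected cancer cells, so the neutrophils of both groups came from hosts without it. Tumours were harvested 4 weeks later, 3 per group, and dissociated for droplet-based single-cell RNA sequencing of transcript 3' ends. Count matrices of 4 libraries were used, namely OE-Vector 1 and OE-MLKL 1, 2 and 3, and those of OE-Vector 2 and 3 were not analysed here. With 1 OE-Vector library, the group and the tumour cannot be told apart, and p-values between groups hold no measure of the spread between OE-Vector tumours. In the gene tests between groups, the spread came from the OE-MLKL libraries and, in large part, from all genes together.

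Neutrophils are short-lived granulocytes that leave the bone marrow with their granule proteins already made and respond to microbial, necrotic and cytokine signals by releasing proteases, oxidants and chemokines. Ccl3 and Ccl4, also known as macrophage inflammatory proteins 1-alpha and 1-beta, are CC chemokines that act on monocytes, macrophages and lymphocytes, and Ccl3 binds the receptor Ccr1. Both are typical targets of NF-kappaB, a family of transcription factors that is activated by Toll-like, interleukin-1 and tumour necrosis factor receptors and induces its own inhibitors.

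The label of these cells was checked against its markers. Besides the rule genes Ccl3, Ccl4, S100a8 and S100a9, the label rests on Il1b, which encodes the cytokine interleukin-1 beta, and on G0s2, an inhibitor of the triglyceride lipase ATGL. Il1b was seen in 93.6, 82.2, 90.5 and 95.4% of Ccl3-Ccl4-high cells thinned to 500 UMIs and G0s2 in 47.3, 9.59, 9.02 and 28.7%, in OE-Vector 1 and OE-MLKL 1 to 3. Keratin-positive cells outside the gate, thinned alike, showed Il1b in 3.26, 1.2, 1.78 and 4.35% and G0s2 in 0, 0, 0.148 and 0%. Neither gene differed from unmarked neutrophils past the threshold. Levels below are UMIs per 1000000 UMIs (CPM) of the summed cells of a library, in the order OE-Vector 1, OE-MLKL 1, OE-MLKL 2 and OE-MLKL 3. Il1b stood at 10094, 8271, 8000.3 and 11527 CPM in Ccl3-Ccl4-high cells and at 11833, 8339.9, 7346 and 11842 CPM in unmarked neutrophils (log2 difference -0.07 ± 0.07, SE, adjusted p = 0.665, edgeR quasi-likelihood test). G0s2 stood at 3120.0, 431, 358 and 1206 CPM against 3306, 258, 297 and 1331 CPM (log2 difference 0.05 ± 0.10, adjusted p = 0.862). The levels of both genes followed the library rather than the state, and for both genes the ranges of the states overlapped. Il1b and G0s2 thus did not mark these cells within the neutrophil gate, and the cells are called Ccl3-Ccl4-high below.

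The libraries held 150591289 to 169978362 UMIs in all, and the summed Ccl3-Ccl4-high cells held 1560588, 118367, 337739 and 679780 of them. The median depth of these cells was 1252, 700.5, 741.5 and 1310 UMIs, close to that of unmarked neutrophils in the same library (1153, 688.5, 740.0 and 1304 UMIs). The neutrophils of OE-MLKL 1 and 2 were thus the shallower ones, and the smallest group of Ccl3-Ccl4-high cells, in OE-MLKL 1, also had the least depth. Of all cells, 605 barcodes were called in more than 1 library, and 26 of the Ccl3-Ccl4-high cells carried such a barcode. Mlkl was at 1.28, 0, 5.92 and 2.94 CPM in the Ccl3-Ccl4-high cells, from 2, 0, 2 and 2 UMIs. Keratin-positive cells were taken to stand for cancer cells, and how many of the cancer cells they cover was not tested. In keratin-positive cells Mlkl was at 11.6, 7.90, 8.14 and 24.0 CPM, from 11, 135, 49 and 2 UMIs in 92, 1519, 675 and 23 cells. At these numbers the values of OE-Vector 1 and OE-MLKL 3 are imprecise, higher Mlkl in the libraries labelled OE-MLKL was not shown, and the groups keep the names of their labels here.

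Summed markers of other cell types varied more between libraries than between Ccl3-Ccl4-high cells and unmarked neutrophils for most lists. Macrophage markers summed to 1433, 2095, 2318 and 2342 CPM in Ccl3-Ccl4-high cells and to 1542, 2680, 2222 and 2559 CPM in unmarked neutrophils. The monocyte list, which contains Chil3, summed to 371, 6928, 8865 and 4241 CPM against 412, 8208, 9769 and 3478 CPM, so that it differed between libraries far more than between states. Dendritic cell markers summed to 697, 152, 252 and 1253 CPM against 704, 278, 397 and 1336 CPM. T cell markers summed to 57.0, 16.9, 121 and 35.3 CPM against 124, 59.5, 49.4 and 67.9 CPM, and basophil and mast cell markers to 73.0, 0, 50.3 and 4.41 CPM against 30.5, 26.3, 11.9 and 7.09 CPM. Markers of NK cells, eosinophils, endothelial cells and fibroblasts summed to at most 134 CPM in Ccl3-Ccl4-high cells, markers of cancer and epithelial cells to at most 211 CPM and those of B and plasma cells to at most 336 CPM. The part of such RNA in the results below was not tested, except where cells with these markers were left out.

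The values that selected the cells are described first, without a test. Ccl3 (chromosome 11, 83647844 to 83649355, minus strand, GRCm38) and Ccl4 (chromosome 11, 83662584 to 83664683, plus strand) are neighbouring genes. Ccl3 was at 9392, 7756, 7538 and 5477 CPM in the selected cells and at 556, 266, 301 and 462 CPM in unmarked neutrophils. Ccl4 was at 9530.4, 4427, 4859 and 5475 CPM in the selected cells and at 252, 109, 102 and 253 CPM in unmarked neutrophils. Barcodes with at most 100 UMIs, which hold mostly free RNA, had 489, 77.8, 111 and 219 CPM of Ccl3 and 417, 73.2, 104 and 310 CPM of Ccl4. In unmarked neutrophils Ccl4 was thus of the order of free RNA. Ccl3 in unmarked neutrophils was close to free RNA in the OE-Vector library and above it in every OE-MLKL library. In the selected cells both transcripts were well above free RNA.

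The pair was unevenly spread over the selected cells. Its median share of a cell's UMIs was 1.36, 0.865, 0.955 and 0.844% in the same order of libraries, and the highest cell of each library reached 16.7, 8.89, 11.3 and 9.97%. Both transcripts were seen in 868 of 1082, 68 of 146, 240 of 388 and 344 of 456 cells, or 80.2, 46.6, 61.9 and 75.4%. In the OE-MLKL libraries Ccl3 alone was seen in 62, 126 and 76 cells and Ccl4 alone in 16, 22 and 36 cells. Ccl4 made up 50.4, 36.3, 39.2 and 49.99% of the pair's UMIs, so the pair was balanced in OE-Vector 1 and OE-MLKL 3 and tilted to Ccl3 in OE-MLKL 1 and 2. The selected cells of OE-MLKL 1 and 2 rested on a median of 7 UMIs of the pair, against 18 in OE-Vector 1 and 13 in OE-MLKL 3. Among the 843, 23, 78 and 397 selected cells with at least 1000 UMIs, both transcripts were seen in 83.3, 47.8, 82.1 and 77.6%. The share was thus lowest in OE-MLKL 1, where it rests on 23 cells.

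The threshold cut through a continuous range. Between 0.5 and 0.6% lay 98, 37, 74 and 85 cells, and just outside, between 0.4 and 0.5%, lay 127, 39, 69 and 84 cells. Just inside, Cxcl2 was at 11252, 9055, 5546 and 9653 CPM, and just outside it was at 11415, 12645, 5639 and 12211 CPM. Cells on either side of the line thus did not have more Cxcl2 on the inner side in any library.

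Although a small share of the tumour cells, the Ccl3-Ccl4-high neutrophils held a sizeable part of each library's Ccl3. They were 7.03, 0.791, 1.68 and 2.59% of the cells and held 1.18, 0.0810, 0.219 and 0.488% of the cells' UMIs, but 26.7, 13.2, 21.1 and 17.3% of the Ccl3 UMIs and 26.1, 7.29, 14.5 and 10.8% of the Ccl4 UMIs. C1q-positive cells, the macrophage gate, held 5.14, 18.7, 11.8 and 16.5% of the Ccl3 UMIs and 8.19, 22.2, 21.1 and 28.9% of the Ccl4 UMIs. Ccl3 and Ccl4 were used by the rule, so a large part was fixed by the selection. Of transcripts outside the rule, the cells held 14.9, 1.53, 3.96 and 4.85% of Cxcl2, 15.6, 2.73, 4.58 and 6.35% of Tnf and 10.7, 1.77, 3.36 and 4.23% of Il1b. For each of these 3 cytokine genes the part exceeded the share of UMIs in every library and was largest in OE-Vector 1, where the cells were most frequent. This did not hold for every cytokine gene. The part of Cxcl3 was close to the share of UMIs in OE-MLKL 1 and 2 (0.0848 and 0.233%), and that of Il1a was 0% in OE-MLKL 1. All gated neutrophils together held 37.4, 25.3, 30.3 and 33.3% of Cxcl2, 33.6, 31.8, 42.9 and 29.0% of Tnf and 51.7, 59.3, 58.6 and 39.5% of Il1b. Levels of Il1b did not differ past the threshold between Ccl3-Ccl4-high and unmarked neutrophils. The excess of Il1b was thus not shown to be particular to Ccl3-Ccl4-high cells.

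Ccl3-Ccl4-high cells were more frequent among the neutrophils of OE-Vector 1 than among those of any OE-MLKL library. They made up 22.1% of gated neutrophils in OE-Vector 1 (1082 of 4907, 95% exact binomial interval 20.9 to 23.2). In the OE-MLKL libraries they made up 3.04% (146 of 4802, interval 2.57 to 3.57), 5.25% (388 of 7387, interval 4.75 to 5.79) and 11.02% (456 of 4139, interval 10.1 to 12.01). The OE-MLKL mean was 6.44% ± 4.12 (SD, n = 3), a difference of -15.6 percentage points. The exact two-sided permutation test gave p = 0.25, the smallest p that 1 against 3 libraries allow, so the difference could not pass a threshold of 0.05. The intervals cover counting error only, and the OE-MLKL libraries differed among themselves beyond it. Because fewer cells of a type and less RNA per cell can both lower a share that is read from UMIs, the shares were also read from cells thinned to 500 UMIs each, which gave 21.99% in OE-Vector 1 and 6.30% ± 3.86 in OE-MLKL.

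**Figure D1:**
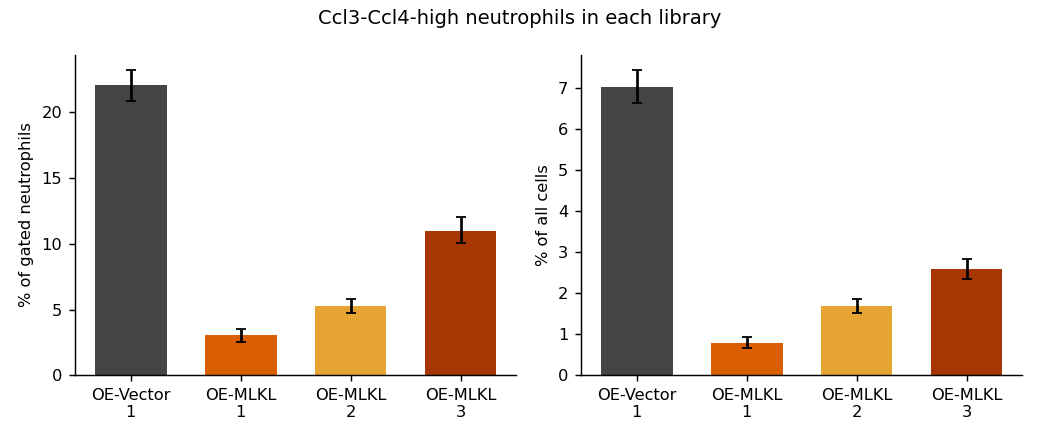
Share of Ccl3-Ccl4-high cells among gated neutrophils (left) and among all cells (right) in each library, as bars in percent, with 95% exact binomial intervals that cover counting error only. Among neutrophils OE-Vector 1 stands at 22.1%, above the 3 OE-MLKL libraries at 3.04, 5.25 and 11.02%.

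The order of the libraries was the same at other thresholds. With at least 1% of UMIs in Ccl3 and Ccl4 the share was 14.2% in OE-Vector 1 and 2.72% ± 1.73 in OE-MLKL, and with at least 0.25% it was 29.5 and 10.9% ± 5.70. As a share of all cells, Ccl3-Ccl4-high neutrophils made up 7.03% in OE-Vector 1 and 1.69% ± 0.898 in OE-MLKL (p = 0.25 in the same exact test). The neighbouring states did not move alike. Retnlg-Mmp8-high cells, the state with transcripts of recently released neutrophils, made up 5.18% of neutrophils in OE-Vector 1 and 24.8% ± 10.3 in OE-MLKL (exact permutation p = 0.5). Interferon-high cells made up 7.13 and 0.928% ± 0.996 (exact permutation p = 0.25), and unmarked neutrophils 65.6 and 67.8% ± 7.16 (exact permutation p = 1). The shares of the states of 1 gate sum to a whole, so a lower share of Ccl3-Ccl4-high cells is not independent of a higher share of Retnlg-Mmp8-high cells.

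Within the same tumours, Ccl3-Ccl4-high neutrophils were compared with unmarked neutrophils to ask which other genes accompany the pair. UMI counts were summed per library and state, and library was a term of the fit, so each library served as its own control. Of 9298 genes outside the rule, 274 were higher (2.95%) and 395 lower (4.25%) in Ccl3-Ccl4-high cells at an adjusted p under 0.05, and the median log2 difference over all tested genes was -0.02. The higher genes included Hilpda, Ralgds, Gdf15, F10 and Cxcl3, other chemokine and cytokine genes, and targets of NF-kappaB. Those lower included interferon-induced genes, some granule and maturation genes, and genes of T and NK cells. Leaving out OE-Vector 1 gave 109 higher and 79 lower genes, and DESeq2 in place of edgeR gave 131 and 124. With OE-MLKL 3 left out, the number of lower genes was 232. Without the library term 0 genes passed in edgeR, with 361 at an unadjusted p under 0.05.

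Several of the most lowered genes were those of T and NK cells, at few UMIs in either state. Thy1 (-2.23 on the log2 scale), Ms4a4b (-2.23), Klrd1 (-1.91), Cd3e (-1.75) and Trbc1 (-1.33) passed, and all but Cd3e were chosen here after their values were seen. Without OE-Vector 1 none of these 5 was called, since Ms4a4b, Cd3e and Trbc1 did not pass (log2 differences -2.17, -1.62 and -1.23, adjusted p = 0.119, 0.421 and 0.652, edgeR) and Thy1 and Klrd1 had too few counts to be tested. Without OE-MLKL 3 only Ms4a4b passed, Trbc1 did not pass without OE-MLKL 1 either, and Thy1 was not tested without OE-MLKL 2. Thy1 had 3, 0, 2 and 1 UMIs in Ccl3-Ccl4-high cells and 42, 10, 32 and 60 in unmarked neutrophils. Of 8 listed T cell markers 6 were tested, of which 0 were higher and 1 was lower in edgeR, with a median log2 difference of -0.60, and of 5 NK cell markers only Gzma was tested and it was lower. With cells holding a T or NK cell marker left out of both states, Cd3e and Gzma were at 0 by construction, and Thy1, Ms4a4b, Klrd1 and Trbc1 had too few counts to be tested. Of the 395 lower genes 385 were still tested then and 328 still called, and of the 274 higher genes 272 and 223.

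Chemokine ligands that attract neutrophils themselves were higher alongside the macrophage-attracting pair. Cxcl2 (chromosome 5, 90903871 to 90905938) and Cxcl3 (chromosome 5, 90786103 to 90789600) encode ligands of Cxcr2, the receptor by which neutrophils are recruited. Cxcl2 had the highest CPM of the chemokines that changed and Cxcl3 the largest log2 difference, so their promoters are shown, and that of Ccl3 because Ccl3 selected the cells. The sequences are from RefSeq (GRCm38.p6) and cover bases 250 to 31 before each start, written 5' to 3' on the strand of the gene. Capitals mark matches to the kappaB motif GGGANNNNCC, where N is any base, searched on both strands in the 250 bases before the start.
Ccl3, chr11:83649409-83649628, minus strand: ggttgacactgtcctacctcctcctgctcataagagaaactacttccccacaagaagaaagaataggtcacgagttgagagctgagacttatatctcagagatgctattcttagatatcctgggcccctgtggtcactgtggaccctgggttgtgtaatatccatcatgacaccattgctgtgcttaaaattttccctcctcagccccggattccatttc
Cxcl2, chr5:90903649-90903868, plus strand: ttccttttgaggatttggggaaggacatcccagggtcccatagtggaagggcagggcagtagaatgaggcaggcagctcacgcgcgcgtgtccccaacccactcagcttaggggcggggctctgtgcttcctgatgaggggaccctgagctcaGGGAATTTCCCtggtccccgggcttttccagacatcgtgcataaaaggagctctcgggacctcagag
Cxcl3, chr5:90785851-90786070, plus strand: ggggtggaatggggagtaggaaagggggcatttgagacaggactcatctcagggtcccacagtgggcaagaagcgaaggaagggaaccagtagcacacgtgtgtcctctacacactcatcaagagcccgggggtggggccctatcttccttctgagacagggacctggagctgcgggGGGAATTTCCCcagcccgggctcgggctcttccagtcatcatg

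The promoters of Cxcl2 and Cxcl3 held the same 11 bases, GGGAATTTCCC, in which 2 matches on opposite strands overlap, starting 97 and 96 bases before the start of Cxcl2 and 73 and 72 bases before that of Cxcl3. The window of Ccl3 held 0 matches to these letters, and so did that of Tnf, which says nothing of the factor. The motif was present in 17.6% of all 32851 RefSeq windows of this length. Of the 15 named genes that were higher, 14 had a window and 4 of these held the motif (Cxcl2, Cxcl3, F10 and Hilpda). Of the 10 named genes that were lower, 6 had a window and 2 of these held it (Adam19 and Mctp2). A match is a description of the sequence only. Ccl4 had no window in the table.

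Cxcl2 was at 19395, 16348, 11414 and 12309.9 CPM in Ccl3-Ccl4-high cells and at 8212, 6599, 3862 and 7915 CPM in unmarked neutrophils. It was higher in all 4 libraries, least so in OE-MLKL 3, and the ranges of the states did not overlap (log2 difference 1.16 ± 0.08, adjusted p = 9.5e-14). Cxcl3 was at 830.5, 127, 91.8 and 124 CPM against 169.6, 68.5, 19.9 and 62.0 CPM (log2 difference 1.72 ± 0.16, adjusted p = 5.01e-11). It was also higher in every library. Its level in the Ccl3-Ccl4-high cells of OE-MLKL was, however, below that in the unmarked neutrophils of OE-Vector 1. In thinned cells Cxcl3 was seen in 15.2, 4.11, 2.84 and 5.26% of Ccl3-Ccl4-high cells and 5.25, 2.29, 0.914 and 2.82% of unmarked neutrophils. Thinned keratin-positive cells showed it in 10.9, 7.8, 4.15 and 0%, above Ccl3-Ccl4-high cells in OE-MLKL 1 and 2 only. All gated neutrophils held 9.87, 1.88, 1.16 and 4.07% of the Cxcl3 UMIs. The part of free RNA in its levels was not tested. Ccl9, another macrophage inflammatory protein, was at 135, 33.8, 68.1 and 64.7 CPM against 45.9, 24.6, 25.7 and 35.7 CPM (log2 difference 1.23 ± 0.16, adjusted p = 4.24e-07). Cxcl1 (log2 difference 0.96) and Ccl2 (1.04) were higher as well, while Ccl5, a chemokine made by T and NK cells, was lower (-1.08). The difference of Ccl5 was 0.16 and did not pass (adjusted p = 0.772) once cells with a T or NK cell marker were left out, and it did not pass without OE-Vector 1 (-0.77). Of 18 listed chemokine ligands outside the rule 14 were tested, of which 5 were higher and 1 lower with a median log2 difference of -0.02, the same as over all genes. Part of the family thus passed, and Ccl6, a ligand of Ccr1, stood at 1009, 676, 568 and 962 CPM against 1366, 522, 681 and 1156 CPM (log2 difference -0.24, adjusted p = 0.129).

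**Figure D2:**
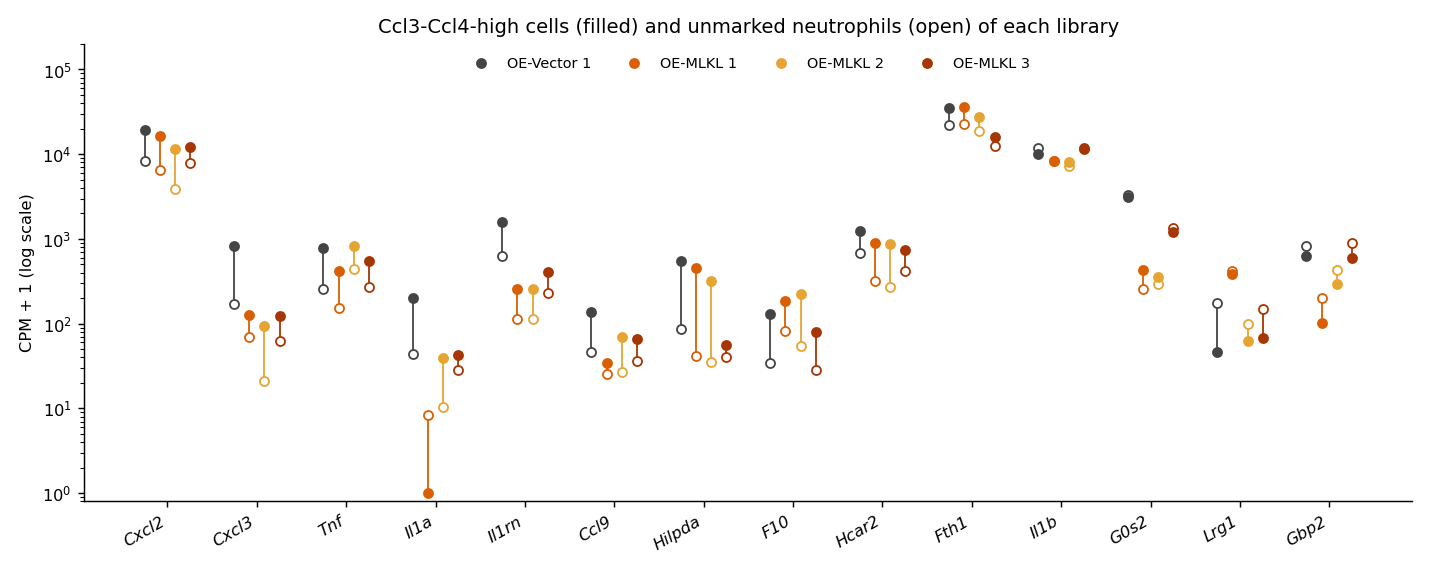
Levels of genes in Ccl3-Ccl4-high cells (filled points) and unmarked neutrophils (open points), as CPM + 1 on a log axis, with 1 colour per library and a line joining its states. The filled points of Cxcl2, Cxcl3, Tnf and Il1rn lie above the open ones in all 4 libraries, those of Gbp2 and Lrg1 below, and those of Il1b close to them.

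Cytokine genes changed in part. Tnf, which encodes tumour necrosis factor, was at 786, 422, 823 and 552 CPM in Ccl3-Ccl4-high cells and at 259, 153, 437 and 271 CPM in unmarked neutrophils (log2 difference 1.20 ± 0.10, adjusted p = 5.6e-12). Il1rn, the secreted antagonist of the interleukin-1 receptor, was at 1579.5, 253, 258 and 403 CPM against 632, 112, 113 and 232 CPM (log2 difference 1.08 ± 0.10, adjusted p = 1.82e-10). Both were higher in all 4 libraries, and for both the ranges of the states overlapped across libraries. The antagonist thus differed between the states while its competitor Il1b did not. Il1a, the second agonist ligand of that receptor, was at 199, 0, 38.5 and 41.2 CPM against 43.3, 7.33, 9.28 and 27.7 CPM (log2 difference 1.64 ± 0.20, adjusted p = 1.02e-07). It had 0 UMIs in the Ccl3-Ccl4-high cells of OE-MLKL 1 and did not pass without OE-Vector 1 (log2 difference 0.92). Csf1, the macrophage growth factor, Il23a, Spp1 (osteopontin) and Inhba, which encodes the activin subunit beta A, were higher by 0.93, 0.91, 0.67 and 1.14 on the log2 scale. Of 21 listed cytokines and growth factors 14 were tested, of which 6 were higher and 0 lower in edgeR, with a median log2 difference of 0.54.

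Targets and feedback genes of NF-kappaB were higher in part. Of 30 listed targets and feedback genes 29 were tested, of which 14 were higher and 0 lower, with a median log2 difference of 0.39 against -0.02 over all genes. Nfkbia, which encodes the inhibitor that retains NF-kappaB in the cytoplasm, was at 3225, 2281, 2908 and 2655 CPM against 2014, 1932, 2019 and 2160.3 CPM (log2 difference 0.41 ± 0.08, adjusted p = 0.000183). The ranges of the states did not overlap, and the smallest step was in OE-MLKL 1. Ccrl2, an atypical receptor that binds chemerin, was at 2395, 2450.0, 2156 and 1949 CPM against 1144, 1213, 1228 and 1334 CPM (log2 difference 0.83 ± 0.08, adjusted p = 3.82e-10). Sod2 (mitochondrial superoxide dismutase), Icam1 (an adhesion ligand of integrins) and Traf1 (an adaptor of tumour necrosis factor receptors) were higher by 1.02, 0.96 and 1.13 on the log2 scale, and Traf1 did not pass without OE-Vector 1 (0.93). Tnfaip3, Tnip1 and Nfkbib, which restrain the pathway at other steps, and the survival genes Bcl2a1a, Bcl2a1b and Bcl2a1d were among the 14. Zfp36, whose protein destabilises cytokine mRNAs, was at 2243, 2163, 1374 and 2159.5 CPM against 2991, 2229.6, 1407 and 2208 CPM and did not pass (adjusted p = 0.239).

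Hilpda, a hypoxia-induced protein of lipid droplets that inhibits ATGL, had the largest difference of the named genes. It was at 552, 448, 317 and 54.4 CPM in Ccl3-Ccl4-high cells and at 85.9, 40.5, 34.7 and 40.0 CPM in unmarked neutrophils (log2 difference 2.48 ± 0.20, adjusted p = 1.94e-12). The gap was narrow in OE-MLKL 3 and wide in the other 3 libraries. With every cell thinned to 500 UMIs, Hilpda was seen in 11.8, 13.01, 8.51 and 1.75% of Ccl3-Ccl4-high cells, in 2.98, 1.77, 1.30 and 1.29% of unmarked neutrophils and in 0, 2.40, 2.37 and 0% of keratin-positive cells. Tnf, which epithelial cells should largely lack, was seen in 21.996, 10.96, 29.4 and 18.6% of thinned Ccl3-Ccl4-high cells, in 9.41, 5.94, 15.6 and 10.1% of unmarked neutrophils and in 0, 0, 0.593 and 0% of keratin-positive cells.

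Hilpda stood apart from most of its list. Of 27 listed genes of glycolysis and hypoxia 26 were tested, of which 5 were higher (Hilpda, Ero1l, Ankrd37, P4ha1 and Gapdh) and 1 lower (Slc2a3), with a median log2 difference of 0.13. Slc2a3, the main glucose transporter of neutrophils, fell by 0.87 on the log2 scale, and the glycolytic enzyme Gapdh was higher by 0.34 but did not pass without any 1 of the 3 OE-MLKL libraries (0.18 to 0.38).

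Genes of the integrated and oxidative stress responses were higher in part. Of 21 listed 19 were tested, of which 8 were higher and 0 lower, with a median log2 difference of 0.33. Fth1, the heavy chain of the iron store ferritin, was at 35463, 36311, 27367 and 15839 CPM against 22239, 22743, 18898 and 12580.5 CPM (log2 difference 0.52 ± 0.06, adjusted p = 3.92e-08). Its level was lowest in OE-MLKL 3 in both states, and the difference was in the same direction in all libraries. Ftl1, the ferritin light chain, Ddit3, a transcription factor of the integrated stress response, and Slc7a11, the cystine importer, were higher by 0.46, 0.82 and 0.51 on the log2 scale. Gdf15, a stress-induced cytokine, was at 44.2, 25.3, 5.92 and 10.3 CPM against 8.52, 5.603, 4.10 and 5.91 CPM (log2 difference 1.79 ± 0.30, adjusted p = 3.56e-05), and with scored doublets removed its difference was 0.44 and did not pass.

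Genes of tumour-infiltrating neutrophils were mostly higher where they changed. Of 27 listed 23 were tested, of which 10 were higher and 1 lower, with a median log2 difference of 0.24. Hcar2, the receptor for ketone bodies and niacin, was at 1239.9, 896, 873 and 746 CPM against 687, 316, 268 and 418 CPM (log2 difference 1.15 ± 0.11, adjusted p = 1.25e-10), without overlap between the states. Cstb, an inhibitor of cathepsins, Clec4n, the receptor dectin-2, and Cd274, which encodes PD-L1, were higher by 0.90, 0.86 and 0.68 on the log2 scale. Alox5ap, the helper protein of leukotriene synthesis, was lower by 0.50 on the log2 scale (adjusted p = 2.79e-05), while Ltc4s, which makes leukotriene C4, was higher by 0.87. In OE-MLKL 3 Ltc4s was not higher, at 19.1 CPM against 22.5 CPM. Nos2 passed (log2 difference 1.22, adjusted p = 0.028), with 16.02, 8.45, 38.5 and 4.41 CPM against 8.52, 14.2, 5.40 and 2.84 CPM. It was not higher in OE-MLKL 1 and did not pass without any 1 of the other 3 libraries.

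Other genes with large differences had further roles. F10, which encodes coagulation factor X, was at 131, 186, 222 and 78.0 CPM against 33.1, 80.6, 52.9 and 27.2 CPM (log2 difference 1.75 ± 0.14, adjusted p = 1.94e-12). Ralgds and Dock10, exchange factors of small GTPases, were higher by 1.80 and 1.58 on the log2 scale. Fnip2, a partner of folliculin, Ifi207, of the interferon-inducible p200 family, Slc31a2, of the copper transporter family, and Basp1 were higher by 1.70, 1.27, 1.12 and 1.14. Ltf, the granule protein lactotransferrin, was at 76.9, 25.3, 94.7 and 85.3 CPM against 22.01, 10.8, 42.1 and 38.8 CPM (log2 difference 1.36 ± 0.16, adjusted p = 5.93e-08). All of these were higher in each of the 4 libraries, which the naming rule required.

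Lower in Ccl3-Ccl4-high cells were several granule genes and genes of the interferon response. Of 24 listed granule and maturation genes 18 were tested, of which 3 were higher (Ltf, Lcn2 and Chil1) and 4 lower (Ngp, Padi4, Mgst1 and Hp), with a median log2 difference of -0.30. Hp did not pass without OE-Vector 1 (-0.28). Ngp, the neutrophilic granule protein, was at 0.641, 110, 17.8 and 2.94 CPM against 1.42, 195, 82.4 and 4.73 CPM (log2 difference -1.35 ± 0.29, adjusted p = 0.00141), and its levels spread over the libraries far more than between the states. Lrg1, a glycoprotein of neutrophil granules, was at 44.9, 380.2, 62.2 and 66.2 CPM against 176, 422, 97.8 and 147 CPM (log2 difference -1.17 ± 0.17, adjusted p = 3.89e-06). Adam19 was lower by -1.25 on the log2 scale, and Mctp2, Tmem71, Nlrp12 and Mtus1 by -1.05, -0.998, -0.99 and -0.97. These last 4 did not pass without OE-Vector 1 (-0.88, -0.64, -0.73 and -0.67). Gzma, a granzyme of cytotoxic lymphocytes, was at 89.1, 0, 14.8 and 17.7 CPM against 159, 6.04, 21.8 and 46.6 CPM (log2 difference -0.99, adjusted p = 9.08e-05). It did not pass without OE-Vector 1 (log2 difference -1.22, adjusted p = 0.056, edgeR), and with scored doublets removed its difference was 0.24.

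Interferon genes outside the rule were lower in part. Of 24 listed 20 were tested, of which 0 were higher and 9 lower in edgeR, with a median log2 difference of -0.42. Gbp2, a guanylate-binding protein, was at 619.6, 101.4, 296 and 600.2 CPM against 833, 199, 424 and 904 CPM (log2 difference -0.58 ± 0.10, adjusted p = 4.15e-05). It was lower in all 4 libraries. Both states were capped by the rule at under 0.5% of UMIs in 4 interferon-induced genes, so the difference lies within a range that the rule had already narrowed. Oas3 (-0.80) did not pass without OE-Vector 1 (-0.69), and Ifitm1 (-0.51) did not pass without OE-Vector 1 (-0.26) or without OE-MLKL 3 (-0.42).

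Receptors and immediate-early genes passed in both directions, beside 2.95% higher and 4.25% lower over all tested genes. Of 27 listed receptors of migration and survival 25 were tested, of which 2 were higher and 5 lower (Cxcr1, Selplg, Tnfrsf1a, Itgam and Cxcr4), with a median log2 difference of -0.17. Of 24 immediate-early genes 23 were tested, of which 6 were higher and 4 lower, with a median of 0.11. Of the heat-shock and immediate-early genes that rise in dissociated tissue, all 13 were tested, of which 4 were higher and 1 lower, with a median of 0.01. Fos, a member of both lists, was at 2557, 5179, 3959 and 4539.7 CPM against 3635, 6038, 4382 and 4895 CPM (log2 difference -0.28, adjusted p = 0.0126) and did not pass without OE-Vector 1 or without OE-MLKL 1. Of the 6 subunits of NADPH oxidase, the enzyme of the respiratory burst, 0 were higher and 1 was lower in edgeR, with a median of -0.12. The part of handling during dissociation in these differences was not tested.

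**Figure D3:**
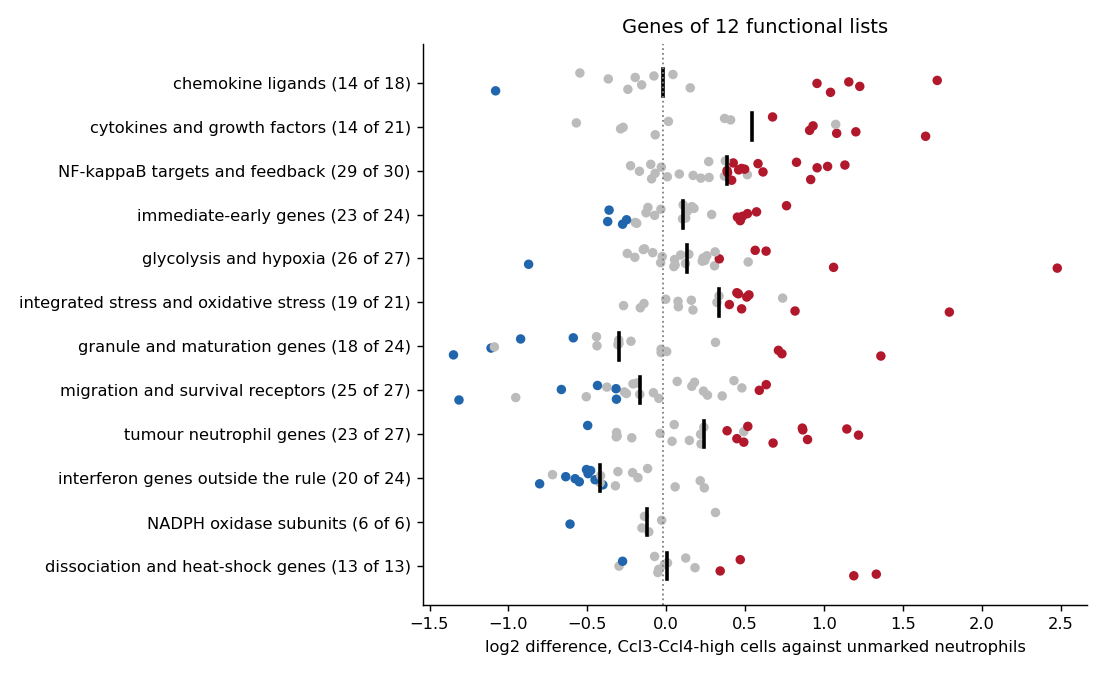
Log2 differences of the tested genes of each list between Ccl3-Ccl4-high and unmarked neutrophils, 1 point per gene, with red for higher and blue for lower genes at an adjusted p under 0.05, grey for the others, a black bar at each list's median and a dotted line at the median of all tested genes. Labels give the genes tested of those listed. The medians run from -0.42 for interferon genes to 0.54 for cytokines and growth factors, against -0.02 over all tested genes.

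Levels of several genes followed the share of Ccl3 and Ccl4 in a graded way. Ccl3-Ccl4-high and unmarked cells were divided by that share, from 0 to 2% or more, and CPM were computed without the pair so that its own UMIs do not dilute the others. From the lowest to the highest bin, Cxcl2 went from 7356 to 30562 CPM in OE-Vector 1, from 3596 to 33427 in OE-MLKL 2 and from 7364 to 19882 in OE-MLKL 3, rising at every step. In OE-MLKL 1 it went from 6217 to 17109.9 CPM in the bin of 1 to 2% and to 42994 CPM in the highest bin, which held 16 cells. Il1b showed no such gradient, with 12364 and 9787 CPM in the lowest and highest bins of OE-Vector 1 and 12040.4 and 11048 CPM in those of OE-MLKL 3. Tmsb4x, the abundant actin-binding thymosin beta 4, went the other way, from 22650.5 to 12217 CPM in OE-Vector 1 and from 18149.8 to 10399 CPM in OE-MLKL 3. Hilpda went from 65.7 to 975 CPM in OE-Vector 1, from 33.3 to 1341 CPM in OE-MLKL 1 and from 25.04 to 924 CPM in OE-MLKL 2, but from 26.7 to 95.4 CPM in OE-MLKL 3. These gradients are descriptions over cells of the same libraries, which are not replicates.

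**Figure D4:**
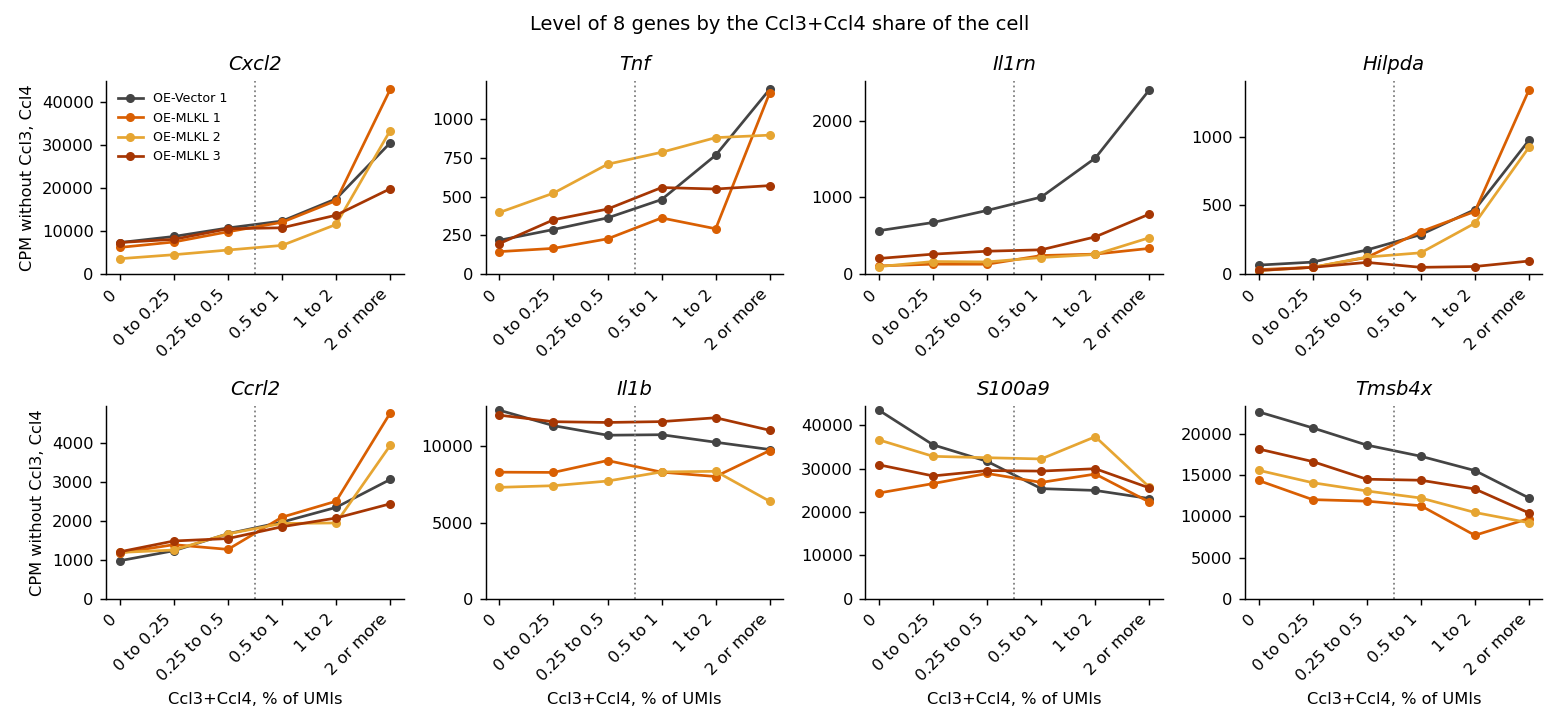
Levels of selected genes, in CPM computed without Ccl3 and Ccl4 on linear axes from 0, against the share of Ccl3 and Ccl4 among a cell's UMIs, with 1 line per library and a dotted line at the threshold of 0.5%. Cxcl2 rises from bin to bin in each library, reaching 19882 to 42994 CPM, while Il1b stays between 6391 and 12364 CPM.

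Against Retnlg-Mmp8-high neutrophils the difference was broader. Of 7070 genes outside the rule, 610 were higher (8.63%) and 916 lower (13.0%) in Ccl3-Ccl4-high cells, with a median log2 difference of 0.02. Without OE-MLKL 3 the counts were 259 and 511, and without OE-Vector 1, which had 254 Retnlg-Mmp8-high cells, they were 365 and 608. Of the granule and maturation genes 17 were tested, of which 1 was higher and 12 were lower, with a median log2 difference of -1.20. The states were separated on Retnlg, Mmp8, Wfdc21 and Stfa2l1, and the part of these differences that follows from that selection was not tested. Ly6g, the surface protein by which mouse neutrophils are recognised, and Ngp were lower by -4.62 and -4.58 on the log2 scale. The stefin A genes Stfa3 and Stfa2, cysteine protease inhibitors, were lower by -5.21 and -4.34, Scrg1 by -5.16 and Bmx, a Tec family kinase, by -3.99. In Ccl3-Ccl4-high cells Stfa3 had 0, 1, 2 and 1 UMIs, Scrg1 0, 0, 3 and 0 and Bmx 3, 2, 1 and 12. Ly6g had 10, 1, 2 and 6 and Stfa2 6, 10, 6 and 1, so the sizes of these differences are imprecise. The Retnlg-Mmp8-high state was selected on Stfa2l1, a gene of the stefin A family whose reads may be shared with Stfa2 and Stfa3, so the values of Stfa2 and Stfa3 are uncertain.

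Higher than in Retnlg-Mmp8-high cells were Ltc4s (3.02 on the log2 scale), Scimp, an adaptor of Toll-like receptors (2.95), Ifi207 (2.86), F10 (2.73), Dock10 (2.66) and Hilpda (2.36). Tnf was at 88.3, 111, 206 and 118 CPM in Retnlg-Mmp8-high cells, a log2 difference of 1.91 ± 0.17 (adjusted p = 1.81e-06). NF-kappaB targets had 16 higher and 2 lower of 28 tested with a median of 0.53, cytokines and growth factors 6 higher and 2 lower of 12 with a median of 0.63, and interferon genes 0 higher and 10 lower of 17 in edgeR with a median of -0.77. Cxcl2 was at 6939.8, 9197, 5225 and 10663 CPM in Retnlg-Mmp8-high cells, so that Ccl3-Ccl4-high cells were above them in every library (log2 difference 0.53 ± 0.16, adjusted p = 0.0228). G0s2, a marker in the label, was higher in the Retnlg-Mmp8-high cells of all 4 libraries, at 4438, 557, 679.5 and 2374 CPM (log2 difference -1.11 ± 0.14, adjusted p = 5.25e-05). Both comparisons use the same Ccl3-Ccl4-high sums, so their results are not independent of each other.

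Among Ccl3-Ccl4-high cells, the libraries labelled OE-MLKL were then compared with OE-Vector 1. Of 6968 genes, 17 were higher (0.244%) and 37 lower (0.531%) in OE-MLKL, with a median log2 difference of 0.03 over all genes and 469 genes at an unadjusted p under 0.05. The libraries left 2 residual degrees of freedom, all from OE-MLKL, and edgeR added 154 prior degrees of freedom from the spread over all genes. The called genes therefore rest on a spread that is largely shared between genes. Without OE-MLKL 2 edgeR called 0 genes, with 137 at an unadjusted p under 0.05. Without OE-MLKL 3 it called 360, and limma-voom and DESeq2 on all libraries called 9 and 16.

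Chil3, which encodes the chitinase-like protein Ym1 of myeloid cells, had the smallest p. It was at 66.6 CPM in OE-Vector 1 and at 6581, 8364 and 3720.3 CPM in OE-MLKL 1, 2 and 3 (log2 difference 6.39 ± 0.72, adjusted p = 8.8e-12). Unmarked neutrophils had 55.8 CPM in OE-Vector 1 and 7814, 9396 and 2915 CPM in OE-MLKL, so that Chil3 differed between libraries in either state, while between the states its log2 difference was 0.00 ± 0.08. Barcodes with at most 100 UMIs had 116, 644, 821 and 447 CPM of Chil3. Bcl2l15, of the Bcl-2 family, was at 15.4 CPM in OE-Vector 1 and at 879, 637 and 172.1 CPM in OE-MLKL (log2 difference 5.003 ± 0.74, adjusted p = 5.12e-07). The transcription factor gene Klf9 was at 15.4 CPM against 338, 343 and 92.7 CPM (log2 difference 3.85 ± 0.65, adjusted p = 2.64e-05). For all 3 genes every OE-MLKL library stood above OE-Vector 1, and OE-MLKL 3 was nearest to it.

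Several cytokine genes were lower in the Ccl3-Ccl4-high cells of OE-MLKL. Cxcl3 was at 830.5 CPM in OE-Vector 1 and at 127, 91.8 and 124 CPM in OE-MLKL (log2 difference -3.04 ± 0.46, adjusted p = 1.25e-06). Il1a was at 199 CPM against 0, 38.5 and 41.2 CPM (log2 difference -2.75, adjusted p = 3.07e-05), and Il1rn at 1579.5 CPM against 253, 258 and 403 CPM (log2 difference -2.52, adjusted p = 0.000195). Il1f9, which encodes interleukin-36 gamma, was at 356 CPM against 50.7, 50.3 and 109 CPM (log2 difference -2.41, adjusted p = 0.000263). Each of these was lower in all 3 OE-MLKL libraries. In unmarked neutrophils the same genes were likewise lower in every OE-MLKL library than in OE-Vector 1. There Il1rn was at 632 CPM against 112, 113 and 232 CPM, and Il1f9 at 326 CPM against 30.2, 24.4 and 105 CPM. The lower levels were thus seen in both states and were not particular to Ccl3-Ccl4-high cells. Ifi27l2a, an interferon-induced gene (log2 difference -3.22), Col15a1 (-2.91) and Gzma (-2.80) completed the 10 of 54 called genes with the smallest p. Of the 139 UMIs of Gzma in OE-Vector 1, 92 came from 1 cell. By the same measure, all 50 UMIs of Il4, a called gene at 0 in every OE-MLKL library, came from 1 cell that also held another basophil marker. Over the OE-MLKL libraries the floor of 3 counts is 2.64 CPM, which makes Il4 at least 12.1-fold lower there in these sums.

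Several transcripts that were higher than in unmarked neutrophils, and Il1b, did not pass between the groups. Cxcl2 was at 19395 CPM in OE-Vector 1 and 13357 CPM ± 2628 (SD, n = 3) in OE-MLKL (log2 difference -0.69 ± 0.42, adjusted p = 0.894), Tnf at 786 and 599 CPM ± 205 (-0.54 ± 0.49, adjusted p = 0.999) and Il1b at 10094 and 9266 CPM ± 1963 (-0.28 ± 0.44, adjusted p = 0.999). With standard errors of this size, these values do not show that the groups were alike. Hilpda was at 552 and 273 CPM ± 200.3 (-1.24 ± 0.50, adjusted p = 0.427). Of the NF-kappaB list 28 were tested and 0 passed in edgeR, with a median log2 difference of -0.40, and of interferon genes 0 of 17 passed, with a median of -0.78. Against 0.244% higher and 0.531% lower over all genes, 2 of 18 tested granule genes were higher (Chil3 and Hp), while 3 of 18 stress genes (Srxn1, Gclm and Hmox1), 2 of 23 tumour neutrophil genes (G0s2 and Siglecf) and 2 of 13 cytokine genes (Il1a and Il1rn) were lower. Of the chemokine, glycolysis, receptor and dissociation lists 1 gene each was lower (Cxcl3 of 13, Ero1l of 26, Itgax of 24 and Hspa1b of 13), and of the immediate-early and NADPH oxidase lists 0 of 22 and 0 of 6 passed in edgeR. Siglecf, a lectin that marks a subset of aged tumour neutrophils and eosinophils, was at 122 CPM in OE-Vector 1 and at 0, 38.5 and 44.1 CPM in OE-MLKL (log2 difference -1.98, adjusted p = 0.00699). In unmarked neutrophils Siglecf was at 83.3 CPM in OE-Vector 1 and at 15.5, 21.4 and 58.2 CPM in OE-MLKL.

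**Figure D5:**
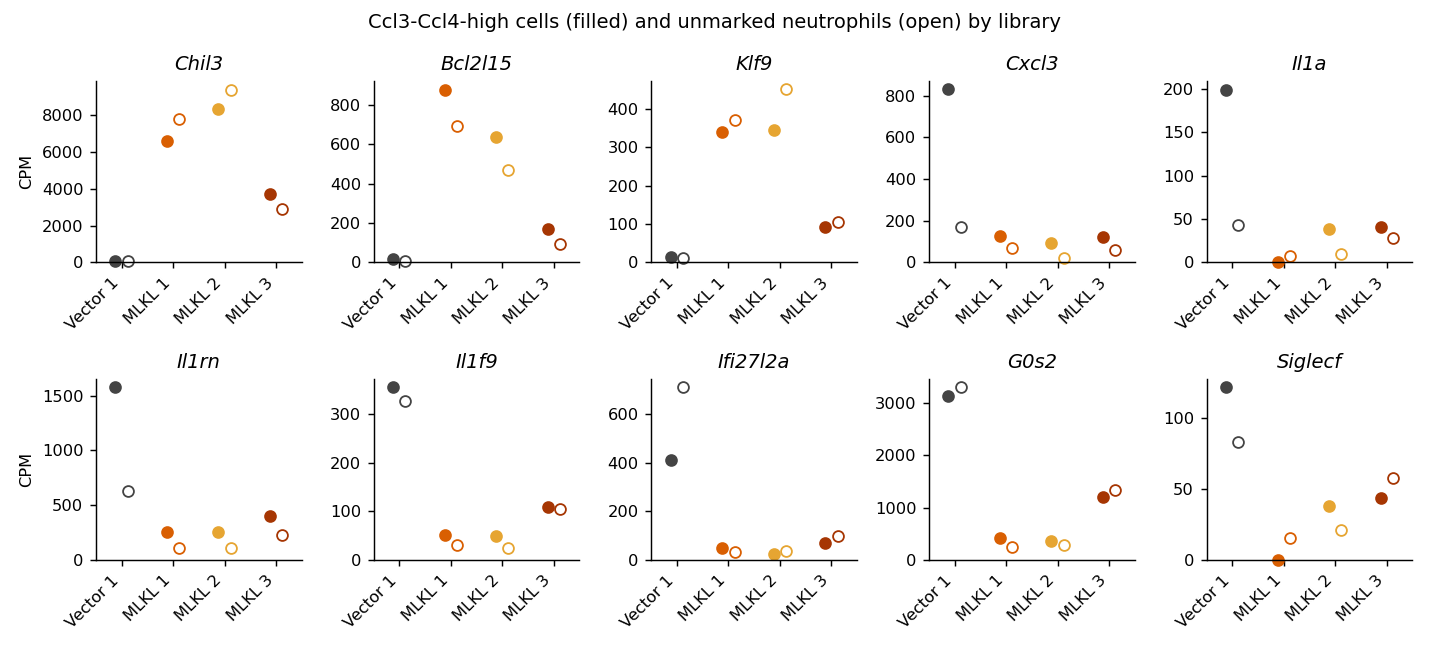
Levels of genes in Ccl3-Ccl4-high cells (filled points) and unmarked neutrophils (open points) of OE-Vector 1 and the 3 OE-MLKL libraries, in CPM on linear axes from 0. In Ccl3-Ccl4-high cells Chil3, Bcl2l15 and Klf9 lie higher in each OE-MLKL library than in OE-Vector 1, and Cxcl3, Il1rn and Il1f9 lie lower.

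In unmarked neutrophils of the same libraries 1 of 12026 genes, Mcpt2, was called in edgeR, with 996 at an unadjusted p under 0.05. Whether a gene's difference between the groups itself differed between Ccl3-Ccl4-high cells and unmarked neutrophils was tested as an interaction over 11330 genes, of which 12 were called (0.106%). Chil3 had an interaction of -0.25 ± 0.18 (adjusted p = 1), and Cxcl3 of -0.97 ± 0.25 (adjusted p = 0.0853). Thus the differences in these genes were not shown to be particular to Ccl3-Ccl4-high cells. The group fit in unmarked neutrophils had 5.11 prior degrees of freedom, against 154 in Ccl3-Ccl4-high cells. Their numbers of called genes are therefore not comparable. The most significant interaction was that of Lcn2, which encodes the iron-binding granule protein lipocalin-2. It was at 1287, 3337, 3097 and 674 CPM in Ccl3-Ccl4-high cells and at 366, 2317, 1827 and 732 CPM in unmarked neutrophils (interaction -1.39 ± 0.17, adjusted p = 8.21e-13). As a ratio of CPM between the states, Lcn2 was thus raised most in OE-Vector 1, less in OE-MLKL 1 and 2, and not in OE-MLKL 3.

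Of the other 11 called interactions, 10 were positive. Hp, which encodes haptoglobin, was at 192, 988, 1439 and 612 CPM in Ccl3-Ccl4-high cells and at 499, 1455, 1567 and 724 CPM in unmarked neutrophils (interaction 1.12 ± 0.19, adjusted p = 1.36e-05), a ratio of CPM further from equal in OE-Vector 1 than in the OE-MLKL libraries. It did not pass without OE-MLKL 2 (1.02). Slpi (0.93), Ifitm1 (0.83), Basp1, Ifitm2, Lrg1 and Jaml also had a positive interaction. Slpi was at 991, 819, 1027 and 559 CPM against 1346, 307, 523 and 878 CPM, higher in Ccl3-Ccl4-high cells in OE-MLKL 1 and 2 only. Slpi did not pass without OE-MLKL 1 or OE-MLKL 2 (0.63 and 0.65), nor Ifitm1 without OE-MLKL 2 (0.74). The T cell gene Trbc2 (2.94) rested on 29 UMIs of 4 cells in OE-MLKL 2, 17 of them in 1 cell, and was -1.56 without that library. The heat-shock gene Hspa1b (-2.91) rested on 81 UMIs of 16 cells in OE-Vector 1, 24 of them in 1 cell. OE-Vector had no second library in this test, the spread was fitted with infinite prior degrees of freedom, and DESeq2 called 0 genes, with 49 at an unadjusted p under 0.05. Leaving out OE-MLKL 2 gave 3 calls and leaving out OE-MLKL 3 gave 38.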

How the data were processed

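Droplet 3' single-cell libraries of orthotopic KPC tumours were used as the raw UMI counts per gene and barcode that the authors deposited, unfiltered, for 32285 genes of mm10. The file header names Cell Ranger 7.1.0, the submitters' processing notes 2.1.1 and the study's methods 3.1.0, and whether intronic reads were counted is not given in the sources used here. Matrices of 4 of 6 samples were analysed. Cells were selected by the rule given above, and the methods of the study share its limits on genes and mitochondrial UMIs. Counts were summed per library and state, and the 21 rule genes were left out of the tests between states.

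Sums were tested with edgeR 4.0.16 (R 4.3.3, glmQLFTest, TMM, filterByExpr) and Benjamini-Hochberg adjustment at 0.05, with library as a term between states. Alternatives used DESeq2 1.42.0, limma 3.58.1 (voom), other thresholds, filters and depths, scored doublets removed, and each library left out. In the tests doublets stayed in. On simulated data 100% of 4-fold changes were recovered between Ccl3-Ccl4-high and unmarked sums and 74% between OE-MLKL and OE-Vector in Ccl3-Ccl4-high sums. Of the genes called in these simulations, 7 of 207 and 13 of 187 were unchanged ones. Genes of low count were not among those changed, so their recovery was not tested. Changes smaller than 4-fold were not simulated, so recovery of differences of that size, which include many named here, was not tested. The simulated OE-Vector counts used the fitted spread, since OE-Vector had no second library.

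The members and gene lists were chosen with earlier results of these data known. Genes were named by rule: the markers of the label, the 15 most raised and 10 most lowered genes past the threshold with the same sign in all 4 libraries and at least 50 CPM (6 and 6 against Retnlg-Mmp8-high cells), the 3 members of highest CPM and the member of largest change of each list, and the 10 and 6 leading genes of the group and interaction tests. Some genes that the rule or the lists hold are not reported here. Other named genes were chosen after their values were seen. Intervals are exact 95% binomial intervals and cover counting error only. Promoter windows were matched by symbol.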

Additional observations from a re-analysis of the deposited data

Results flagged for a closer look

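In 6 genes the difference between OE-MLKL and OE-Vector 1 in Ccl3-Ccl4-high cells differed from that in unmarked neutrophils in a test of the interaction itself, on the log2 scale. It was -1.39 for Lcn2, 1.12 for Hp, 2.94 for Trbc2, 0.93 for Slpi, 0.83 for Ifitm1 and -2.91 for Hspa1b. These were the 6 of 12 called genes with the smallest p. Lcn2 was called under all alternatives but DESeq2, where it was -1.33 and did not pass. Trbc2 was -0.86 when cells with a T or NK cell marker were left out.

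The barcode lists of OE-Vector 2 and OE-Vector 3, whose matrices were not analysed here, contained 98.4 and 96.2% of the barcodes of the Ccl3-Ccl4-high cells. This was far above the 57.7 to 65.9% and 62.3 to 64.4% found for all barcodes listed in a library. It was also found for unmarked neutrophils (98.5 and 93.8%) and for all cells (99.2 and 97.4%), so the Ccl3-Ccl4-high cells did not stand apart. The lists name barcodes with no counts and say nothing of the cells of those tumours.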

How the results depend on the processing

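The lower share of Ccl3-Ccl4-high cells among neutrophils in OE-MLKL kept its direction under every alternative run, from -11.4 to -18.6 percentage points (without 1 library -13.9 to -17.9), and as a share of all cells it was -5.35. No p could fall below 0.25. Counts of called genes moved more, and the cause was not tested. Against unmarked neutrophils (274 higher, 395 lower) DESeq2 gave 131 and 124, sums thinned to 500 UMIs per cell 162 and 194, no library term 0 and 0 in edgeR with 361 genes at an unadjusted p under 0.05, no filter 622 lower, and leaving out 1 library 109 to 235 higher and 79 to 352 lower. Against Retnlg-Mmp8-high cells (610 and 916) DESeq2 gave 322 and 583, thinned sums 362 and 505, no library term 68 and 156, and leaving out 1 library 259 to 592 and 511 to 945. Between the groups (54) a threshold of 1% gave 30, DESeq2 16, at least 1000 UMIs per cell 15, limma-voom 9, a mean of at least 20 UMIs 11, and leaving out 1 library from 0 (OE-MLKL 2, where 137 had an unadjusted p under 0.05) to 360 (OE-MLKL 3). The interaction (12) gave 1 at a threshold of 1%, 0 in DESeq2 with 49 at an unadjusted p under 0.05, 2 at 1000 UMIs, 24 in limma-voom, 2 at a mean of 20 UMIs, 7 in thinned sums, and 3 to 38 without 1 library. Named genes kept direction and call in 1366 of 1562 alternatives, and 153 lost the call in the same direction, 11 gained it and 32 reversed.

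Reversals against unmarked neutrophils were mostly of genes near 0. G0s2 was -0.0624 at a threshold of 1%, -0.106 at 1000 UMIs, -0.0275 without cells with a T or NK cell marker, -0.0943 in limma-voom, -0.0348 with no filter and -0.0738 with no library term. Chil3 was -0.205 at 1%, -0.00781 without doublets, -0.00766 in limma-voom, -0.0814 with no filter, -0.118 with no library term and -0.0255 in thinned sums. Aldoa was -0.00174 in limma-voom, -0.0315 with no filter and -0.0297 in thinned sums, Cxcl10 0.0404 at 1%, and Gzma 0.24 without doublets. The interaction of Trbc2 was -0.86 without cells with a T or NK cell marker. Leaving out 1 library gave values from -0.137 (OE-MLKL 2) to 0.0221 (OE-Vector 1) for Il1b, -0.0565 (OE-MLKL 1) to 0.174 (OE-MLKL 3) for G0s2, -0.249 (OE-MLKL 2) to 0.00958 (OE-MLKL 3) for Cxcl10, -0.137 (OE-MLKL 2) to 0.0800 (OE-Vector 1) for Pkm, -0.0569 (OE-MLKL 2) to 0.135 (OE-Vector 1) for Aldoa, -0.117 (OE-MLKL 3) to 0.101 (OE-MLKL 1) for Chil3, -0.108 (OE-MLKL 1) to 0.0836 (OE-Vector 1) for Ccr1, -0.273 (OE-MLKL 1) to 0.0651 (OE-Vector 1) for Ifitm3, -0.144 (OE-MLKL 2) to 0.0343 (OE-Vector 1) for Ier2 and -0.44 (OE-Vector 1) to 1.79 (OE-MLKL 3) for Hspa1b. The interaction of Trbc2 ran from -1.56 (OE-MLKL 2) to 4.25 (OE-MLKL 3).

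Leaving out cells with basophil or mast cell markers, or with T or NK cell markers, was chosen after seeing the data and moved no count of called genes by over 1.5 times. No paired analysis was possible because the labels number the replicates within each group and name no pairs between the groups. Depth limits the Ccl3-Ccl4-high cells of OE-MLKL 1, 146 cells with 118367 UMIs, where a gene at 0 is not shown to be absent.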
